A study of Mus musculus with 37 samples.

Results

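The genes described here are 33 genes of the cellular response to low oxygen and of glycolysis in the hearts of E10.5 mouse embryos. The list names 2 hypoxia-inducible factor subunits, 2 oxygen-sensing hydroxylases, known targets of these factors and the enzymes and transporters that carry glucose to lactate. All 33 symbols were found among the 25239 gene rows of the count table, and all 33 were among the 15046 genes with enough counts to be tested. The list was chosen with earlier results of these data known, which included 1 library in which such genes stood high, the library labelled Nipbl_het replicate 2. The genotype tests of these 33 genes are therefore given both with that library and leaving it out.

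The series holds 37 bulk RNA sequencing libraries of whole hearts. Males carrying Stra8-iCre, which acts in the male germ line, and Nipbl Flox/+ passed on either the Nipbl Flox allele, which works, or the Nipbl FIN allele, which is null. Their mates were Isl1 Cre/+ females, in which a Cre recombinase sits in 1 Isl1 allele and leaves Isl1 haploinsufficient. The progeny fall into 4 genotypes: wild-type (Nipbl +/+; Isl1 +/+; n = 10), Isl1_het (Isl1 +/-; n = 9), Nipbl_het (Nipbl +/-; n = 9) and double_het (Nipbl +/-; Isl1 +/-; n = 9). Nipbl encodes a protein that loads cohesin on chromosomes, and Isl1 encodes a transcription factor of heart progenitor cells. The labels give no father, mother or litter for a library, so p-values measure only the spread between these samples. Each label also carries a set number (1, 2, 5, 6 or 7) after the letters IVF, and the labels do not spell out what it marks. Set 1 held wild-type and Isl1_het libraries only, and set 7 held only double_het replicate 2, which a term for set fits exactly, so that fitted comparisons of double_het rest on 8 libraries.

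Cells sense oxygen through prolyl hydroxylases such as Egln1 and Egln3, which mark the alpha subunits Hif1a and Epas1 for destruction when oxygen is at hand. When oxygen is short the subunits persist, pair with Arnt and bind DNA at short sites with the core letters ACGTG or GCGTG near target genes. The targets include growth factors for vessels, collagen hydroxylases, glucose transporters and most enzymes of glycolysis, and the embryonic heart before birth relies on glycolysis more than the adult heart does. Control of the alpha subunits is largely at the protein level, which RNA counts do not measure.

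Promoters of 6 members are shown with the core letters through which hypoxia-inducible factors bind, which each of the 6 holds at least 1 time. Each runs from 250 bases before to 50 bases after a RefSeq gene start (GRCm38.p6), is written 5′ to 3′ on the gene's strand, and has in capitals every ACGTG and GCGTG on either strand. Car9, Egln3 and Ddit4 are the members with an entry that stood farthest above the other Nipbl_het libraries in the library labelled Nipbl_het replicate 2, Adm passed a genotype test without it, Ldha had the highest level per length, and Hif1a is the factor itself.
Car9 chr4:43506776-43507075 (+): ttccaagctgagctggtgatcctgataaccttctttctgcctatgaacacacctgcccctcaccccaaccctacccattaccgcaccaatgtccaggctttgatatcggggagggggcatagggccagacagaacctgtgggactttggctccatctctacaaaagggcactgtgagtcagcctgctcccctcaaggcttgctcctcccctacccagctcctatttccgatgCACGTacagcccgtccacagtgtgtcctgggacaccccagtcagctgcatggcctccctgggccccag
Egln3 chr12:54203825-54204124 (-): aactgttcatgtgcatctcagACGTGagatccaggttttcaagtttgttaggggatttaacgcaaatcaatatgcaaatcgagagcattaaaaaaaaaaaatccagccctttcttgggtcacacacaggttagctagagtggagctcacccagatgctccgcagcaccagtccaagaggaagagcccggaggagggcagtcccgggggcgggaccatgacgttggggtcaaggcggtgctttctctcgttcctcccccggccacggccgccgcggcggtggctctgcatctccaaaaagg
Ddit4 chr10:59951721-59952020 (-): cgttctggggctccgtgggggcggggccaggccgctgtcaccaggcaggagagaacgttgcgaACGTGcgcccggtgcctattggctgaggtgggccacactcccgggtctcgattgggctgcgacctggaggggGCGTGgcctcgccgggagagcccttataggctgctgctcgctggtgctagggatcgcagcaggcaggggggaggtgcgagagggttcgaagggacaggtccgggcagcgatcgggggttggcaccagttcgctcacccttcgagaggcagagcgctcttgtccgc
Adm chr7:110627407-110627706 (+): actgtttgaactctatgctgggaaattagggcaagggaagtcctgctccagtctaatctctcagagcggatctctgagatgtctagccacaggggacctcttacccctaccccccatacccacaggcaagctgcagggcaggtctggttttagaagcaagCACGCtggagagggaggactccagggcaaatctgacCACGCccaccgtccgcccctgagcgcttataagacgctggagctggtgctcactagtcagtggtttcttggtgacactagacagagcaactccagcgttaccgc
Ldha chr7:46845554-46845853 (+): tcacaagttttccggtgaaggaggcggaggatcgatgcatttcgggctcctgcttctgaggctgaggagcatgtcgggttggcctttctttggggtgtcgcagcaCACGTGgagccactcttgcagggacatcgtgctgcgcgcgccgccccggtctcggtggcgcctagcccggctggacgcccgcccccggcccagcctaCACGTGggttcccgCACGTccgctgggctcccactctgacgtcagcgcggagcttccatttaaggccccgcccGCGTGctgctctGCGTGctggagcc
Hif1a chr12:73907617-73907916 (+): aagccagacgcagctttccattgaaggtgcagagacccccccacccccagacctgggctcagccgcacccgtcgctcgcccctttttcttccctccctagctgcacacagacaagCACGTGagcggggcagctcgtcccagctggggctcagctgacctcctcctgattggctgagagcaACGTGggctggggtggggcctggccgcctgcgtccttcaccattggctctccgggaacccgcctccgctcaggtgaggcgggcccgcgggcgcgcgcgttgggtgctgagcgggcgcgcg

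The table of promoters matched 30 of the 33 members, with 44 promoters in all; Slc2a3, Epas1 and Ndrg1 had no entry. Either core was present in 36 of the 44 promoters (81.8%), against 43.8% of all 32851 promoters of the same length. Counted per gene, 28 of 30 members (93.3%) had a promoter with either core, against 46.7% of 27025 genes. ACGTG was in 59.1% of the members' promoters and in 19.6% of all, and GCGTG in 56.8% and 32.4%. The letters CACGTG hold the first core on each strand and count on both. The members' promoters were also richer in G and C (median 62.8%, against 52.7% of bases in all), and the part of base composition in these shares was not tested. Such a match describes letters and is no measured binding site.

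Depth ran from 23356831 to 50974736 counts per library (median 36239721). Levels are given as CPM, a gene's share of the library total on the usual per-million scale, after TMM scaling, which sets libraries on 1 scale. Nipbl stood at 47.6 to 78.8 CPM in wild-type and at a median of 37.6 CPM in Nipbl_het, while the library labelled Nipbl_het replicate 2 stood at 72.4 CPM, which goes against its label. In double_het Nipbl ran from 28.2 to 51.5 CPM (median 37.2 CPM), so its highest value lay inside the wild-type range. Isl1 overlapped between genotypes and does not check the labels, with medians of 6.82 CPM in wild-type, 5.80 CPM in Isl1_het, 12.5 CPM in Nipbl_het and 8.47 CPM in double_het. Heart muscle markers were present in every library. Hearts differed widely in blood, since the sum of 12 erythroid markers ran from 490.0 to 106529 CPM over all libraries, and in bulk samples fewer cells of a type and less RNA per cell cannot be told apart.

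In wild-type hearts the most abundant members were glycolytic genes, though not every glycolytic gene was abundant. Per kilobase of exon, Ldha, which turns pyruvate into lactate, was highest at 937 ± 152 CPM per kb (SD, n = 10), followed by Aldoa at 798 ± 116, Pgk1 at 693 ± 59.7, Tpi1 at 667 ± 96.6 and Pkm at 636 ± 63.6 CPM per kb. Their SDs overlap, so the order among these neighbours is not firm. Among the genes of glucose entry, the transporter Slc2a1 stood at 275 ± 51.1 CPM per kb and Slc2a3, a second transporter, at 14.1 ± 4.55 CPM per kb. Among the regulators Hif1a stood at 44.6 ± 5.41 and Egln1 at 40.8 ± 4.14 CPM per kb, while Epas1 and Egln3 were near 5, at 4.95 ± 0.911 and 4.27 ± 0.747 CPM per kb. Bnip3, a mitochondrial protein of mitophagy, was the highest of the secreted and signalling genes at 86.7 ± 13.9 CPM per kb, and Ndrg1 the lowest at 0.695 ± 0.179 CPM per kb. P4ha1 exceeded P4ha2, the other catalytic subunit of collagen prolyl hydroxylase, at 19.1 ± 2.88 against 7.82 ± 1.35 CPM per kb. Pfkfb3, which makes the activator of phosphofructokinase, was the lowest of upper glycolysis at 2.85 CPM per kb, with 15.7 to 29.8 CPM over the wild-type libraries. Car9, a carbonic anhydrase of the cell surface, was lowest of all at 0.417 ± 0.0902 CPM per kb, with raw counts from 22 upward. Gapdh, the lowest listed gene of lower glycolysis at 11.0 ± 6.89 CPM per kb, has many near-identical copies in the genome, as Eno1 has in Eno1b, and the values of these genes are uncertain because the counting could split such reads.

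**Figure D1:**
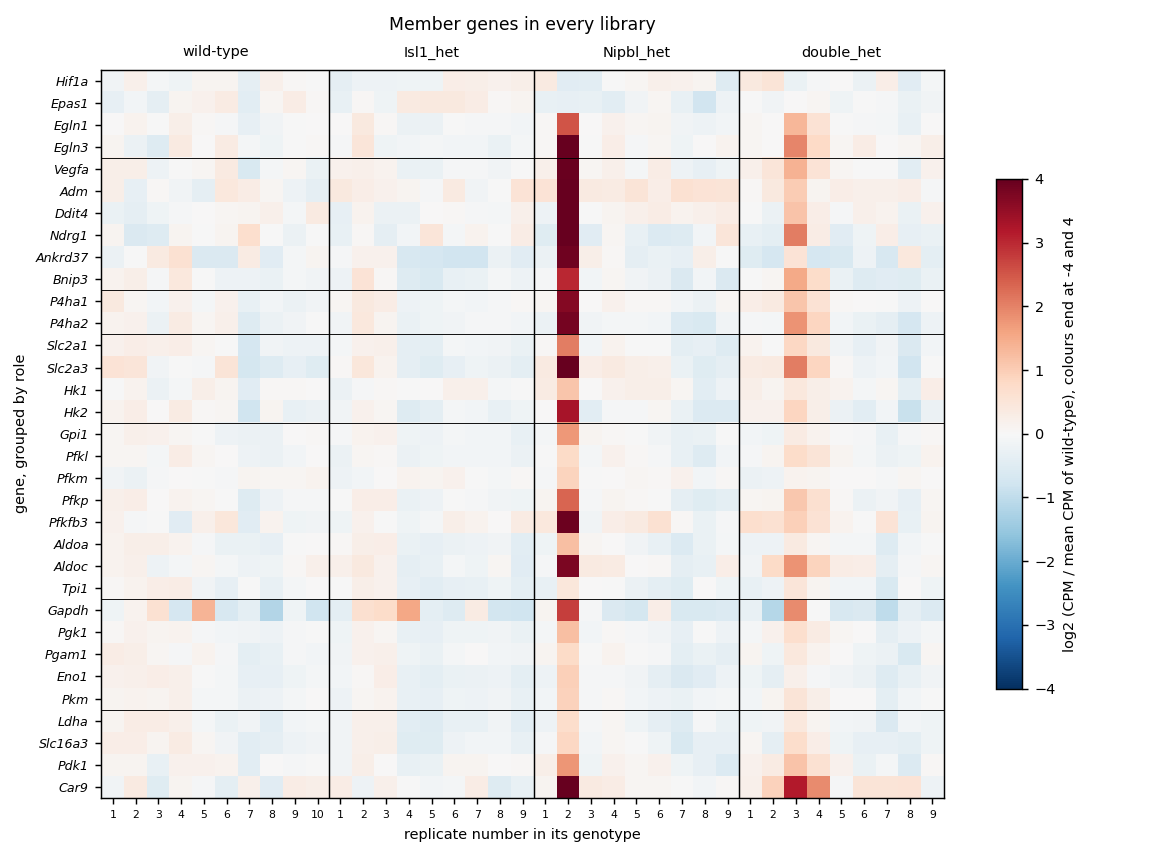
Level of each of the 33 members (rows, grouped by role) in each of the 37 libraries (columns, by genotype and replicate number), as log2 of CPM over the wild-type mean, with the colour scale cut off at a log2 of 4 in either direction. The library labelled Nipbl_het replicate 2 is red in nearly every row, double_het replicates 3 and 4 are paler red, and the other columns are pale in most rows.

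The library labelled Nipbl_het replicate 2 held the highest value of all 37 libraries in 30 of the 33 members, while 30.0% of all tested genes had their highest value there. The median member stood 5.43-fold above the mean of the other 8 Nipbl_het libraries, against 0.984-fold for the median of all tested genes. In 18 members it stood at least 2-fold above the highest other library, a count that was not made over all genes. In 13 members it was at least 10-fold above the mean of the other Nipbl_het libraries, as were 119 of the 15046 tested genes. This is a single library, so its folds are descriptions with no test.

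The secreted and signalling members had folds from 9.19 to 135, with a median of 15.3. Ndrg1, a stress-response gene, was at 3.17, 3.53 and 6.42 CPM (lowest, median and highest) in the other 8 Nipbl_het libraries and at 545 CPM in the library labelled Nipbl_het replicate 2. That is 135-fold over their mean and 29.1-fold over the highest of the other 36 libraries. Ddit4, an inhibitor of mTOR signalling, was at 30.1, 38.6 and 42.4 CPM in the other 8 and at 914 CPM there, 24.2-fold over their mean. Neither gene overlapped with any other library. Vegfa, the main growth factor for vessels, was 15.1-fold higher at 1309.8 CPM, Ankrd37 15.6-fold, the vasodilator peptide Adm 11.4-fold and Bnip3 9.19-fold. The collagen hydroxylases P4ha1 and P4ha2 stood 12.7-fold and 16.5-fold higher, at 1007 and 687 CPM.

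Among the regulators, the hydroxylases and the factor subunits differed. Egln3 was at 10.2, 11.6 and 13.6 CPM in the other 8 Nipbl_het libraries and at 361 CPM in the library labelled Nipbl_het replicate 2, 30.8-fold over their mean, and Egln1 was 5.67-fold higher at 833 CPM. Both hydroxylases are themselves targets of the factors they control. The factor subunits did not stand high there. Hif1a was at 183, 279.8 and 335 CPM in the other 8 and at 193 CPM in this library, 0.724 of their mean and position 35 of 37 from the top. Epas1 was at 16.4, 22.6 and 28.9 CPM in the other 8 and at 21.9 CPM in this library, 0.957 of their mean and position 33 of 37. Both values lay inside the range of the other Nipbl_het libraries.

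Glucose entry ranged from 2.05-fold for Hk1, the hexokinase found in most tissues, to 19.3-fold for Slc2a3. Slc2a3 was at 72.8, 119.6 and 132 CPM in the other 8 Nipbl_het libraries and at 2079 CPM in the library labelled Nipbl_het replicate 2. The inducible hexokinase Hk2 was 11.4-fold and Slc2a1 4.50-fold higher. In upper glycolysis the regulatory enzyme Pfkfb3 was 13.4-fold and Aldoc 12.9-fold higher, Pfkp 5.43-fold and Gpi1 3.50-fold, while Aldoa, Pfkl, Pfkm and Tpi1 lay between 1.56-fold and 2.58-fold. Tpi1, the triose isomerase, was at 1303, 1587 and 1859 CPM in the other 8 and at 2524 CPM there, and was 1 of the 3 members not highest there, since double_het replicate 3 reached 2572 CPM. Pfkm, the muscle phosphofructokinase, was at 139, 152 and 170.1 CPM in the other 8 and at 275 CPM there.

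Lower glycolysis ran from 1.81-fold for Pgam1 to 2.47-fold for Pgk1 apart from Gapdh, which was listed 8.38-fold higher with the uncertainty named above. Pgam1, the phosphoglycerate mutase, was at 339, 431 and 486 CPM in the other 8 and at 749 CPM in the library labelled Nipbl_het replicate 2. Of the exits, Car9 was at 0.891, 1.02 and 1.23 CPM in the other 8 and at 61.4 CPM there, 59.1-fold over their mean. Pdk1, a kinase that inhibits pyruvate dehydrogenase, was 3.50-fold higher, the lactate exporter Slc16a3 2.00-fold and Ldha 1.86-fold.

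**Figure D2:**
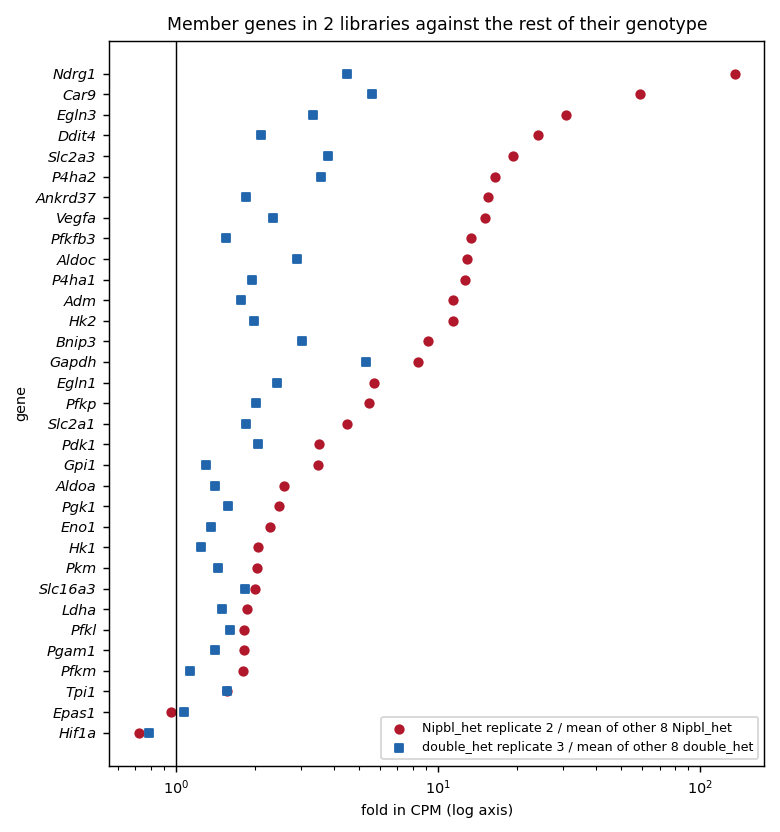
Fold in CPM (log axis) of each member in the library labelled Nipbl_het replicate 2 over the mean of the other 8 Nipbl_het libraries (circles) and in double_het replicate 3 over the mean of the other 8 double_het libraries (squares). Circles run from 0.724 for Hif1a to 135 for Ndrg1, and Hif1a is below 1 in both libraries.

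Marker levels of this library differed too. Its erythroid marker sum, 490.0 CPM, was the lowest of the 37 libraries (826 to 106529 CPM over the 35 libraries other than it and double_het replicate 3), and the embryonic globin Hbb-y was at 211 CPM against 329 to 50356 CPM elsewhere. Its sum of 5 ventricular markers was the lowest at 3310.4 CPM, with Myl2 and Irx4 below every other library and Hey2 above. The sum of 6 cushion mesenchyme markers was the highest at 1327 CPM, but Vcan alone made up 1067.5 CPM of it and was the 1 gene of the list highest there, while Sox9 at 20.9 CPM lay below every other library (32.4 CPM or more). Of 8 immediate early genes 5 were highest there and 1, Ier2, was lowest, with a sum of 298 CPM against 188 to 252 CPM. The sum of 8 heart muscle markers, 35164 CPM, lay inside the range of 27911 to 43283 CPM of the 35 libraries, while Tnnt2, Tnni1 and Myl4 lay below every other library and Myh7 above. Other lists were mixed as well. Of 8 endothelial and endocardial markers Pecam1 and Kdr were above every other library and Tek, Nfatc1 and Npr3 below, and of 6 macrophage markers Csf1r (12.7 CPM, against at most 7.28 CPM) and Cx3cr1 were above and Lyz2 below. The part of these shifts in the member genes' levels was not tested.

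A second library, double_het replicate 3, showed the same members high to a smaller extent. Among the 36 other libraries it held the highest value in 28 of the 33 members, against 6.79% of all tested genes. Its median fold over the mean of the other 8 double_het libraries was 1.85 for members and 0.989 for all genes. Its largest folds were 5.61 for Car9 (8.66 CPM against 0.843, 1.37 and 3.53 CPM in the other 8), 5.30 for Gapdh, 4.51 for Ndrg1, 3.81 for Slc2a3 and 3.59 for P4ha2, while Hif1a stood at 0.789 of the mean of the others and Epas1 at 1.07. Its Nipbl level of 37.2 CPM fitted its label, and its erythroid sum of 32860 CPM ranked 6 of 37 from the top, unlike that of the library labelled Nipbl_het replicate 2. The epicardium sum of double_het replicate 3, 639 CPM, was the highest of the 37 libraries, and its immediate early sum ranked 33 of 37. Of the 35 libraries then left, double_het replicate 4 was highest in 15 of 33 members (4.06% of all genes), with 3.53 CPM of Car9, 323 CPM of Bnip3 and 88.6 CPM of P4ha2. All 3 libraries belong to set 5.

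Genotype comparisons were made with the edgeR quasi-likelihood test on counts, with set number as a term and p-values adjusted by Benjamini-Hochberg over all tested genes at a threshold of 0.05. A log2 change of 1 means 2-fold. With all libraries, 1 of 33 members passed in Nipbl_het against wild-type (1.71% of all genes), namely Epas1, which was lower, where DESeq2 called Epas1 and Car9 (3.05% of all genes). Likewise 1 passed in the Nipbl effect taken as the mean of its values in both Isl1 genotypes (4.02%; the averaged Nipbl effect), again Epas1, which DESeq2 called too (5.40% of all genes). No member passed in Isl1_het against wild-type (0% of all genes), double_het against wild-type (2.60%), double_het against Isl1_het (0.957%), double_het against Nipbl_het (0%), the averaged Isl1 effect (0.173%) or the interaction (0%). The edgeR counts of members at an unadjusted p under 0.05 were 2, 0, 2, 13, 12 and 3 for these 6 comparisons, where all genes gave 5.89%, 11.6%, 7.49%, 9.01%, 12.2% and 2.73%. DESeq2 called 0 members in them apart from 1, Epas1, in double_het against Isl1_het, with 10 members left without an adjusted p, and its own shares of all genes were 0.0731%, 3.46%, 1.56%, 0%, 0.751% and 0%. In Nipbl_het against wild-type 12 members had an unadjusted p under 0.05 (15.1% of all genes), 11 of them higher, and in the averaged Nipbl effect 6 did (14.9%).

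Leaving out the library labelled Nipbl_het replicate 2, the members were no longer mostly higher in Nipbl_het. The median log2 change of the members in Nipbl_het against wild-type went from 0.35 to -0.04 (0.01 and -0.01 over all genes), and the number with an unadjusted p under 0.05 from 12 to 2 (14.7% of all genes). Those 2 also passed the adjusted threshold, Epas1 lower and Adm higher (2.72% of all genes). The spread between libraries of 1 genotype and set, as the median coefficient of biological variation of the members, went from 0.329 to 0.162, and that of all genes from 0.171 to 0.132. In double_het against wild-type Car9 passed (5.57%), in double_het against Isl1_het Epas1 and Car9 (2.40%), and in the averaged Nipbl effect Epas1 and Adm (6.93%). At an unadjusted p under 0.05 there were 6 members (19.2% of all genes), 16 (11.8%) and 8 (18.9%) in these 3 comparisons. Isl1_het against wild-type (0.0133%), double_het against Nipbl_het (0%), the averaged Isl1 effect (0.372%) and the interaction (0%) had 0 members past the edgeR threshold. At an unadjusted p under 0.05 they had 10 members (11.8%), 3 (7.71%), 3 (16.7%) and 10 (3.22%), and DESeq2 was not run without this library. The comparisons with wild-type share the wild-type libraries, so they are not independent of each other.

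Cell type markers also differed between the genotypes. The sum of 6 epicardium markers ran from 253 to 425 CPM in wild-type, from 289.9 to 521 CPM in Isl1_het, from 388 to 584 CPM in Nipbl_het and from 497 to 639 CPM in double_het, so that double_het and wild-type did not overlap. The ventricular sum had a median of 7629.6 CPM in wild-type, 5518 CPM in Isl1_het, 4863 CPM in Nipbl_het and 4788 CPM in double_het, with overlap. Without the library labelled Nipbl_het replicate 2 the Nipbl_het median was 5329 CPM. The endothelial and endocardial sum overlapped in all genotypes, with medians of 768, 851, 779 and 897 CPM in the same order. The part of these markers in the genotype differences of the genes below was not tested.

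Epas1 encodes HIF-2 alpha, a subunit prominent in endothelial cells, and lies at 86753700 to 86833410 on the plus strand of chromosome 17 (GRCm38). Its levels (lowest, median and highest) were 20.6, 28.9 and 35 CPM in wild-type, 22.6, 29.9 and 36.7 CPM in Isl1_het, 16.4, 22.6 and 28.9 CPM in Nipbl_het and 23.3, 26.5 and 29.3 CPM in double_het. Of the Nipbl_het libraries, 8 of 9 lay below the wild-type mean (7 of 8 without the library labelled Nipbl_het replicate 2) and 1 below every wild-type library, so the groups overlapped. All 18 libraries labelled with 1 working Nipbl allele lay below the median of the 19 labelled with 2, which was 29.4 CPM, and 17 of 17 did when the library with a Nipbl level against its label was not counted. In log2 terms Epas1 fell by 0.39 in Nipbl_het against wild-type (edgeR, SE 0.0910, adjusted p 0.0158), and with the library labelled Nipbl_het replicate 2 left out the adjusted p was 0.0149. The averaged Nipbl effect was -0.37 (SE 0.0694, adjusted p 0.00112, edgeR), a call that was lost with set 5 left out (adjusted p 0.0836, edgeR). Double_het against Isl1_het gave -0.34 (adjusted p 0.0966, edgeR), with all 9 double_het libraries below the Isl1_het mean. The adjusted p was 0.0465 without the library labelled Nipbl_het replicate 2 (edgeR). With double_het replicate 3 left out as well, no member passed in this comparison (smallest adjusted p 0.0619, edgeR). Within sets 2, 5 and 6 the difference in mean log2 CPM of Nipbl_het from wild-type was -0.21, -0.43 and -0.54, and that of double_het -0.10, -0.18 and -0.27. Set 6 held 1 double_het library. The call in Nipbl_het was lost in edgeR without the set term (adjusted p 0.105) and with any 1 of sets 1, 2, 5 and 6 left out (0.0504 to 0.169), with log2 changes from -0.45 to -0.27 over all 12 alternatives. It was also lost with the replicate number as a term in place of the set number. Epas1 itself varied with set, with wild-type means of 23 CPM in set 1 and 32.2 CPM in set 6.

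Adm encodes adrenomedullin, a secreted peptide that widens vessels, and lies at 110627661 to 110629820 on the plus strand of chromosome 7. It was at 5.17, 6.52 and 9.04 CPM in wild-type, 6.05, 7.46 and 9.76 CPM in Isl1_het, 6.44, 7.72 and 13.4 CPM in double_het, and 7.99, 9.50 and 10.2 CPM in the 8 Nipbl_het libraries other than the one at 105 CPM. All 8 of these Nipbl_het libraries lay above the wild-type mean, and 5 of them above every wild-type library. With all libraries the log2 change in Nipbl_het was 1.34 (SE 0.397, adjusted p 0.0731, edgeR), and without the library labelled Nipbl_het replicate 2 it was 0.47 (SE 0.125, adjusted p 0.0334, edgeR), so that of these 2 fits only the latter passed the threshold. Within sets 2, 5 and 6 the difference without that library was 0.52, 0.70 and 0.21. In the averaged Nipbl effect Adm rose by 0.31 without it (adjusted p 0.0452, edgeR), and the adjusted p was 0.0519 when double_het replicate 3 was left out as well.

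Car9 lies at 43506966 to 43513729 on the plus strand of chromosome 4. It was at 0.683, 0.977 and 1.24 CPM in wild-type, 0.665, 0.906 and 1.18 CPM in Isl1_het, 0.891, 1.02 and 1.23 CPM in the 8 Nipbl_het libraries other than the one at 61.4 CPM, and 0.843, 1.37 and 8.66 CPM in double_het. In Nipbl_het against wild-type with all libraries Car9 was at 2.12 (edgeR, adjusted p 0.152) and was called by DESeq2, and leaving out the library at 61.4 CPM it was at 0.16 (edgeR, adjusted p 0.901). Of the 9 double_het libraries, 6 lay above every wild-type and every Isl1_het library. Without the library labelled Nipbl_het replicate 2, Car9 rose in double_het by 1.19 against wild-type (SE 0.343, adjusted p 0.0348, edgeR) and by 1.28 against Isl1_het (SE 0.346, adjusted p 0.0402, edgeR). Without double_het replicate 3 as well these were 0.66 (adjusted p 0.0825) and 0.69 (adjusted p 0.114), so both calls rest on that library. Within sets 2, 5 and 6 the difference of double_het from wild-type was 0.27, 0.95 and 0.88, and in set 5 it was 0.42 without double_het replicate 3. The value of set 6 rests on 1 double_het library.

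**Figure D3:**
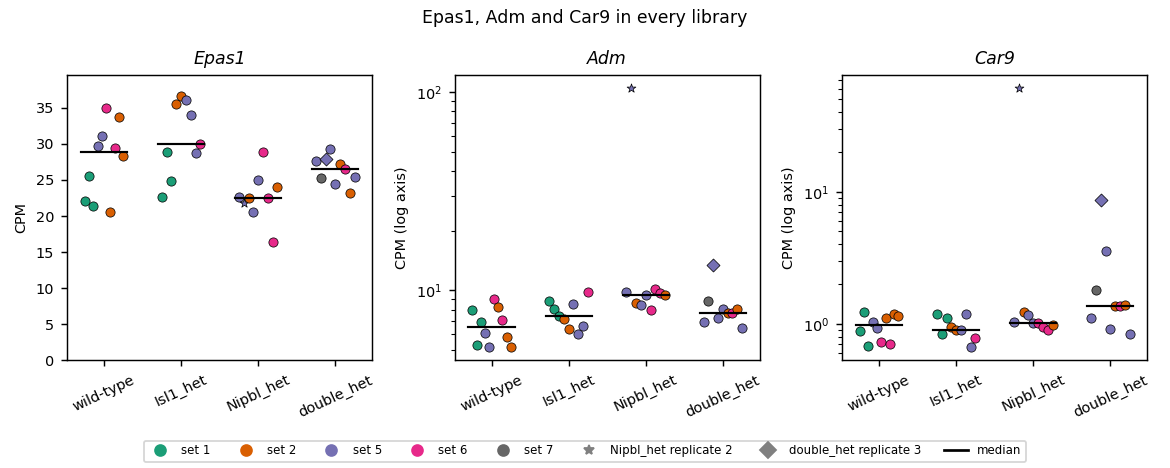
Level in CPM of Epas1 (linear axis), Adm and Car9 (log axes) in every library, by genotype, with the set number as colour, the median as a line, a star for the library labelled Nipbl_het replicate 2 and a diamond for double_het replicate 3. Epas1 medians are lower in both genotypes with 1 working Nipbl allele, and the ranges overlap.

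With the library labelled Nipbl_het replicate 2 and double_het replicate 3 both left out, Epas1 and Adm passed in Nipbl_het (3.05% of all genes, and 3 members at an unadjusted p under 0.05 against 15.1%) and Epas1 in the averaged Nipbl effect (6.98%, and 6 members against 19.0%). Double_het against wild-type then had 0 members past the edgeR threshold (4.74%) and 3 at an unadjusted p under 0.05 (17.1%), and double_het against Isl1_het had 0 (1.84%) and 8 (10.8%). Isl1_het against wild-type had 0 past the threshold (0.0133%) and 13 at an unadjusted p under 0.05, 12 of them lower (11.8%). This setting was chosen after the data were seen, and DESeq2 was not run in it.

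With set number in the edgeR model, the remaining 30 members passed in no genotype comparison, either with all libraries or without the library labelled Nipbl_het replicate 2. Without the set term and with all libraries, Egln3, Vegfa, Ddit4, Ndrg1, Slc2a3 and Pfkfb3, with Adm and Car9, passed in Nipbl_het against wild-type (8 members, and 3.10% of all genes). In Isl1_het against wild-type the median log2 change was -0.17 over the members and 0.00 over all genes. It was negative in 29 of 33 members and positive in 4, where 48.8% of all genes were positive. Among the 29 were Ldha at -0.24 (SE 0.0975, adjusted p 0.795, edgeR) and the enolase Eno1 at -0.22 (SE 0.104, adjusted p 0.835, edgeR), neither of which passed. Without the library labelled Nipbl_het replicate 2, which is in neither group but in the same model, the median was -0.10. Then 27 of 33 were negative and 6 positive, where 46.6% of all genes were positive. These shares were not tested, and the members vary together. The interaction, which asks whether double_het departs from the sum of both single effects, had a member median of -0.21 with all libraries and 0.27 without that library. Its sign thus turned with 1 library. Left out too, double_het replicate 3 brought that median to 0.13.

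**Figure D4:**
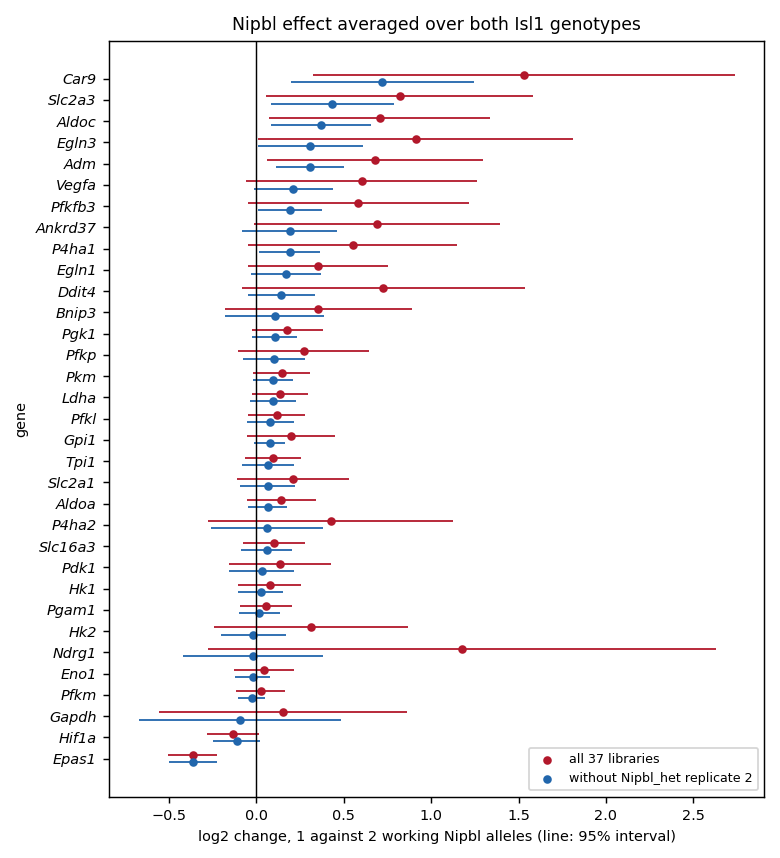
Averaged Nipbl effect on each member as log2 change of 1 against 2 working Nipbl alleles, with 95% intervals, with all 37 libraries (red) and without the library labelled Nipbl_het replicate 2 (blue). Epas1 lies left of 0 in both fits at -0.37 and -0.36, and the blue intervals of most other members are narrower and closer to 0.

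The set number was associated with the level of 16 of the 33 members (adjusted p under 0.05, edgeR F test, 38.2% of all genes). These were Hif1a, Epas1, Bnip3, Slc2a1, Hk1, Pfkl, Pfkp, Aldoa, Tpi1, Pgk1, Pgam1, Eno1, Pkm, Ldha, Slc16a3 and Pdk1. The count was 22 without the library labelled Nipbl_het replicate 2 (55.7%) and 27 without double_het replicate 3 as well (56.3%). The members' share was above that of all genes in these 3 fits, but below it in some other fits given below, such as that with an erythroid term. The direction thus depended on the fit, and the differences were not tested. The smallest p-values were those of Slc16a3 (adjusted p 3.10e-04), Hif1a (8.92e-04), Pgam1 (0.00128) and Ldha (0.00137).

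Among wild-type hearts Slc16a3 ran from 450 to 505 CPM in the 3 libraries of set 1, from 309 to 382 CPM in the 3 of set 2, from 446 to 521 CPM in the 2 of set 5 and from 328 to 375 CPM in the 2 of set 6. Sets 1 and 5 lay above sets 2 and 6 with no overlap. Ldha ran from 3378 to 3813 CPM in set 1, from 2806 to 2969 in set 2, from 2925 to 3562 in set 5 and from 2327 to 2601 CPM in set 6. Pgam1 had wild-type means of 508, 392, 457 and 394 CPM in sets 1, 2, 5 and 6. Hif1a had another order, with wild-type means of 263, 245, 259.5 and 292 CPM. Of the 33 members, 14 had their highest wild-type mean in set 1, 4 in set 2, 9 in set 5 and 6 in set 6. With the erythroid level as a further term the set number was associated with 7 members instead of 16, and with 30.1% of all genes. What a set shares beyond its number was not tested.

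**Figure D5:**
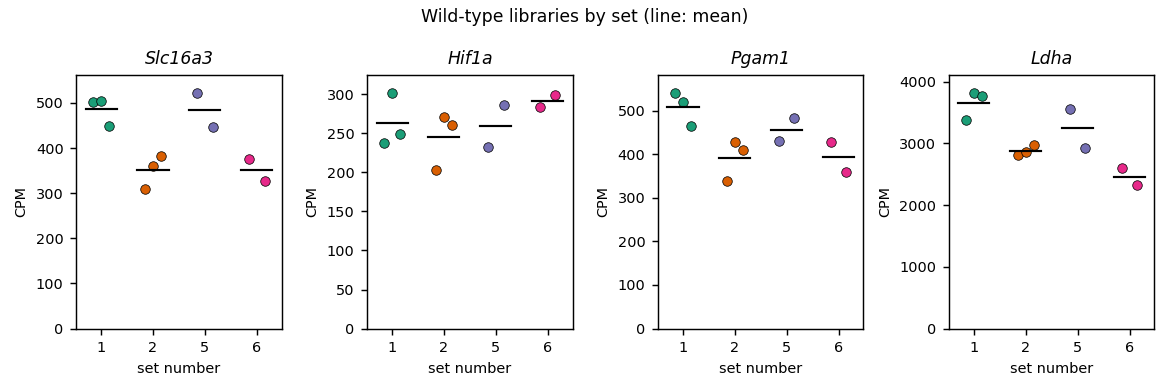
Level in CPM of Slc16a3, Hif1a, Pgam1 and Ldha in the 10 wild-type libraries by set number, each point a library and each line a mean. Slc16a3 lies at 445.8 CPM or above in sets 1 and 5 and at 382 CPM or below in sets 2 and 6, while Hif1a has its highest mean in set 6.

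Other genes of the pathways came from 2 further lists, chosen like the members with earlier results known. Of 40 other oxygen response genes 39 were tested. With all libraries 0 passed in any of the 8 genotype comparisons in edgeR and 0 in DESeq2, which left 8 without an adjusted p, and in edgeR 10 had an unadjusted p under 0.05 in Nipbl_het against wild-type, all of them higher (15.1% of all genes). There were 1 in Isl1_het (5.89%) and 2 in double_het (11.6%) against wild-type, 1 in double_het against Isl1_het (7.49%), 8 in double_het against Nipbl_het (9.01%), 4 in the averaged Nipbl effect (14.9%), 5 in the averaged Isl1 effect (12.2%) and 1 in the interaction (2.73%). In the library labelled Nipbl_het replicate 2, 31 of the 39 had their highest value of all libraries (30.0% of all genes), with a median fold of 3.21 over the other Nipbl_het libraries. Of 4 genes named after their values were seen, the repressor Bhlhe40 stood 34.2-fold higher there, the oxidase of the endoplasmic reticulum Ero1l (listed under that older symbol) 17.0-fold, Stc2 13.1-fold and the heme oxygenase Hmox1 10.8-fold. Other genes of the list stood below the mean of the other Nipbl_het libraries. They were Car12 at 0.432, Egln2 at 0.484, Angptl4 at 0.754, Hif1an at 0.777, Pfkfb4 at 0.816 and Arnt2 at 0.887 of it. Without the library labelled Nipbl_het replicate 2, 1 of the 39 passed in double_het against wild-type (5.57% of all genes). There were 2 in double_het against Isl1_het (2.40%) and 2 in the averaged Nipbl effect (6.93%). In that fit Plod2, a lysyl hydroxylase of collagen, rose in double_het by 0.46 against wild-type (edgeR, SE 0.117, adjusted p 0.0153). Of 9 double_het libraries, 8 lay above every wild-type library, as all 9 did in the epicardium marker sum. Plod2 rose by 0.44 and Hmox1 by 0.36 in double_het against Isl1_het (adjusted p 0.0383 and 0.0236, edgeR). Leaving out double_het replicate 3 as well, Plod2 was at 0.35 against wild-type (adjusted p 0.0177) and 0.30 against Isl1_het (adjusted p 0.0732), and Hmox1 at 0.25 against Isl1_het (adjusted p 0.0187, edgeR).

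Of 43 other glycolysis and pyruvate genes 35 were tested, and 14 of these had their highest value in the library labelled Nipbl_het replicate 2, with a median fold of 1.26, against 30.0% and 0.984-fold over all tested genes. The neuronal enolase Eno2 stood 20.5-fold higher there, while 2 enzymes abundant in red cells stood low, Pklr at 0.0449 and Bpgm at 0.129 of the mean of the other Nipbl_het libraries, as did the erythroid markers. In edgeR with all libraries, 1 of the 35 passed as higher and 1 as lower in Nipbl_het against wild-type (1.71% of all genes). The averaged Nipbl effect gave the same counts (4.02%), and double_het against wild-type gave 1, as lower (2.60%). No gene of this list passed in the other genotype comparisons. Slc16a1, a transporter of lactate and pyruvate, fell in Nipbl_het by 0.24 (SE 0.0630, adjusted p 0.0423, edgeR) and in double_het by 0.28 (SE 0.0653, adjusted p 0.0139, edgeR) against wild-type, and both calls held in the fits that left out 1 or both libraries (adjusted p 0.00239 to 0.00497). Its levels were 137, 146 and 189 CPM in wild-type, 95.9, 140.5 and 175.0 CPM in Nipbl_het and 110.0, 135 and 155 CPM in double_het, and the groups overlapped. Fbp2, a muscle enzyme of gluconeogenesis, rose in Nipbl_het by 1.94 (edgeR, SE 0.437, adjusted p 0.0139). Its Nipbl_het libraries ran from 0.219 to 0.713 CPM against at most 0.326 CPM in wild-type, with 5 of 8 above every wild-type library when the library labelled Nipbl_het replicate 2 was left out, and no more than 28 raw counts in any library. With the library labelled Nipbl_het replicate 2 left out, 4 of the 35 passed in double_het against wild-type (5.57% of all genes). Nipbl_het against wild-type had 2 (2.72%), the averaged Nipbl effect 3 (6.93%) and double_het against Isl1_het 1 (2.40%). In double_het against wild-type Pgm2 (by 0.24) and Slc2a4 (by 0.36) rose and Pdk3 fell by 0.22, with adjusted p of 0.0132, 0.0231 and 0.0264 in edgeR. In that fit Slc2a4 also rose in the averaged Nipbl effect by 0.27 (edgeR, adjusted p 0.0149). With all libraries DESeq2, which left 3 genes without an adjusted p, called Slc16a1 and Fbp2 in both Nipbl_het and double_het against wild-type. It called Slc2a4 in Nipbl_het as well, Fbp2 in double_het against Isl1_het, and all 3 in the averaged Nipbl effect. The DESeq2 shares of all genes are given above.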

How the data were processed

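Bulk paired-end RNA sequencing of E10.5 hearts used the NEB Monarch Total RNA Miniprep and NEBNext Ultra II RNA kits, per the labels' protocols. Whole-number read counts per gene symbol, not normalized, are what the authors deposited, in 1 table for all libraries. The submitters' processing notes name STAR and featureCounts and the builds GRCm38 and mm10; the annotation, strand setting and filters are not given in the sources used here, so reads of overlapping, antisense or near-identical genes cannot be told apart. All 37 columns were matched to genotypes by their labels, and 0 other columns were present. In 153 pairs of libraries of 1 genotype chi-square divided by its degrees of freedom was at least 7.46, so none agreed within sampling noise.

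Genes were kept with filterByExpr (minimum count 10, minimum total 15), which left 15046 with all libraries and 15072 without Nipbl_het replicate 2. Counts were fitted with TMM scaling and the edgeR quasi-likelihood test (edgeR 4.0.16 with limma 3.58.1 under R 4.3.3) in 1 model of all 4 genotypes that had terms for genotype and for set number, giving 8 two-sided contrasts and an F test of the set terms. Adjusted p-values are Benjamini-Hochberg values over all genes of a comparison. Log2 CPM used a prior count of 2, and standard errors came from the test statistic. Exon lengths and gene positions are from GENCODE M21 (GRCm38). The members and lists were chosen with earlier results of these data known. Named members were those past the threshold in a genotype comparison, the 5 farthest above and 5 farthest below the other Nipbl_het libraries in Nipbl_het replicate 2, the highest and lowest per length in each role, and the 4 with the smallest set p-values. Alternatives were no set term, the replicate number as a factor, DESeq2 1.42.0, RLE size factors, no low-count filter, an erythroid covariate, and libraries or sets left out. On simulated counts of 15046 genes the fit recovered 61.2%, 86.6% and 98.5% of genes changed by a log2 of 0.5, 1 and 2 in Nipbl_het, with 10 false calls. The changed genes were drawn at random from all genes, with no differences between sets and no outlying library. With all libraries the members varied more than all genes (median coefficient of biological variation 0.329 against 0.171). These shares therefore cannot be carried over to the members.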

Additional observations from a re-analysis of the deposited data

Results flagged for a closer look

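Within each genotype, a library was picked out for a member where the gap between it and the nearest library was a large share of the whole range (Dixon 95% critical value for the number of libraries). Of the 132 combinations of member and genotype, 53 met this. Chance flags about 1 in 20 groups, but the members were chosen knowing that 1 library stood high and they vary together, so the number is a description and no test. The library labelled Nipbl_het replicate 2 accounted for 31 of them, in each case as the highest of its genotype. Its regulators stood at 833 CPM for Egln1 and 361 CPM for Egln3. The secreted and signalling members stood at 1309.8 CPM for Vegfa, 105 CPM for Adm, 914 CPM for Ddit4, 545 CPM for Ndrg1, 120.3 CPM for Ankrd37 and 1578 CPM for Bnip3. The collagen hydroxylases stood at 1007 CPM for P4ha1 and 687 CPM for P4ha2. For glucose entry the levels were 3969.7 CPM for Slc2a1, 2079 CPM for Slc2a3, 1305 CPM for Hk1 and 1309.6 CPM for Hk2. For upper glycolysis they were 3749 CPM for Gpi1, 909 CPM for Pfkl, 275 CPM for Pfkm, 1118 CPM for Pfkp, 328 CPM for Pfkfb3, 6796 CPM for Aldoa, 154 CPM for Aldoc and 2524 CPM for Tpi1. Lower glycolysis gave 309.9 CPM for Gapdh, 3577 CPM for Pgk1, 749 CPM for Pgam1, 5087 CPM for Eno1 and 6008 CPM for Pkm. The exits gave 5095 CPM for Ldha, 739 CPM for Slc16a3, 714 CPM for Pdk1 and 61.4 CPM for Car9.

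Double_het replicate 3 accounted for 15, again as the highest of its genotype. The values were 369.6 CPM for Egln1 and 44.0 CPM for Egln3. Secreted and signalling members gave 224 CPM for Vegfa, 13.4 CPM for Adm, 75.0 CPM for Ddit4, 18.7 CPM for Ndrg1 and 557 CPM for Bnip3. Collagen hydroxylases gave 170.0 CPM for P4ha1 and 169.8 CPM for P4ha2. Glucose entry gave 425 CPM for Slc2a3 and 242 CPM for Hk2. Upper glycolysis gave 39.9 CPM for Aldoc. Lower glycolysis was 166 CPM for Gapdh. Exits were 687 CPM for Slc16a3 and 8.66 CPM for Car9.

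Isl1_het replicate 2 accounted for 4, with 190.5 CPM for Egln1, 16.0 CPM for Egln3, 286 CPM for Bnip3, 65.3 CPM for P4ha2. The other 3 were Ndrg1 at 7.33 CPM in wild-type replicate 7, Gapdh at 116 CPM in wild-type replicate 5, Gapdh at 131 CPM in Isl1_het replicate 4. No cause of these values was tested.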

How the results depend on the processing

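The number of members past the threshold moved with the processing, and the cause was not tested. Nipbl_het against wild-type gave 1 member (1.71% of all genes) and 8 without a set term (3.10%), 2 (Epas1 and Car9) in DESeq2 (3.05%), 2 without Nipbl_het replicate 2 (2.72%), 2 without that library and double_het replicate 3 (3.05%, chosen after the data were seen), and 0 with any 1 of sets 1, 2, 5 and 6 left out (0.207% to 1.15%). Double_het against wild-type gave 0 (2.60%), and 1 without Nipbl_het replicate 2 (5.57%). Double_het against Isl1_het gave 0 (0.957%), and 1 in DESeq2 (1.56%) and 2 without Nipbl_het replicate 2 (2.40%). The averaged Nipbl effect gave 1 (4.02%), and 9 without a set term (6.95%), 2 without Nipbl_het replicate 2 (6.93%) and 0 without set 5 (1.81%). The set number gave 16 (38.2%), and 7 with the erythroid term (30.1%), 10 without set 1 (22.8%), 6 without set 2 (9.46%), 9 without set 6 (31.3%) and 27 without both libraries (56.3%). For the set number, the members' share was below that of all genes with the erythroid term and without set 6. It was above that of all genes in the other fits listed here.

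The same replicate numbers occur in the 4 genotypes but do not pair the samples. Over 54 same-numbered pairs the median correlation of deviations was 0.03 (range -0.45 to 0.55, 17 over 0.1). With the replicate block in place of the set number, Nipbl_het against wild-type had 0 members past the threshold (2.36% of all genes), since Epas1 was at -0.27 with an adjusted p of 0.121 (edgeR), while the averaged Nipbl effect still had 1 (6.6%). No change of direction occurred among the log2 changes of Epas1, Adm and Car9 followed over 12 alternatives each. The averaged Nipbl effect on Epas1 ran from -0.38 to -0.24 and passed in 11 of 12, the exception being set 5 left out (adjusted p 0.0836). The count over all genes in Nipbl_het against wild-type was 258, and from 31 without set 2 to 467 without a set term. Car9 and Fbp2 rest on few counts, and the part of depth in their results was not tested.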
